A study of Mus musculus with 40 samples.

Results

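The Hedgehog genes followed here are 7 in number: the ligand gene Shh, the receptor gene Ptch1, the transducer gene Smo, the transcription factor genes Gli1, Gli2 and Gli3, and Hhip, which encodes a membrane protein that binds the ligand. They were taken by symbol, 7 of 55260 symbols (55286 in the LO table), and each was found in all 5 tables of TPM. TPM is the share of a library's transcripts that come from a gene, corrected for transcript length, so it can be compared between genes. The data came from mouse branching lung organoids, which are cultures grown from epithelial cells of embryonic lung tips, and from tips themselves, 40 libraries in all. The groups were 10 organoids named by the stage of the starting tip (E9.5, E10.5, E11.5, E13.5 or E14) and by 11 to 32 days of culture, set against 4 tips of successive stages (E10.5, E11.5 and E12.5, then E13.5, 1 each); ALL-FGF10, ALL-MTG and ALL-VC, set against ALL (2 replicates each); LO at days 8, 11 and 18 and LO_day11_DCI (1 each); 2C+F10, 2C+MTG, 2C+VC and an ALL library without a replicate number, set against 2C (1 each); and 8 pieces of organoid beside 1 intact one. The labels define none of ALL, MTG, VC, F10, 2C, DCI and LO, so it is assumed here that a minus names a component left out and a plus one added. They name no genotype, strain or promoter, and leave the origin of replicates unstated, so a p-value covers only the spread between these libraries.

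Sonic hedgehog is secreted by the epithelium of the developing lung, most strongly at the growing tips. In cells that receive it, the receptor Patched1 stops holding back Smoothened, and the Gli factors then turn on target genes. Ptch1, Gli1 and Hhip are themselves target genes, so their RNA is widely used to read the response; Gli2 is known mainly as an activator and Gli3 mainly as a repressor. In the embryonic lung the response is known chiefly from the mesenchyme around the epithelium.

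The start-site sequences of Ptch1 and Hhip are shown because both genes are response genes, yet Ptch1 was detected in every library and Hhip was near 0 in most cultured ones. Each is a RefSeq window on GRCm38.p6, 250 bases before to 50 after a start site, written 5′ to 3′ on the gene's own strand with CG dinucleotides in capitals. The Ptch1 window is chr13:63565686-63565985 on the minus strand, at a start site inside the gene as GENCODE M21 draws it (chr13:63508328-63573598), and the Hhip window is chr8:80057959-80058258 on the minus strand.
Ptch1: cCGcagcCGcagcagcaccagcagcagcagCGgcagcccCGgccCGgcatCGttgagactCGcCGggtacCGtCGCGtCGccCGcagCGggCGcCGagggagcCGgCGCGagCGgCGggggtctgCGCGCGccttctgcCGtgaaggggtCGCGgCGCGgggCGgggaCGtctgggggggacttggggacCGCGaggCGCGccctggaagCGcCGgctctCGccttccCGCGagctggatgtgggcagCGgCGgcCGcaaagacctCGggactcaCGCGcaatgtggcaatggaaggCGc
Hhip: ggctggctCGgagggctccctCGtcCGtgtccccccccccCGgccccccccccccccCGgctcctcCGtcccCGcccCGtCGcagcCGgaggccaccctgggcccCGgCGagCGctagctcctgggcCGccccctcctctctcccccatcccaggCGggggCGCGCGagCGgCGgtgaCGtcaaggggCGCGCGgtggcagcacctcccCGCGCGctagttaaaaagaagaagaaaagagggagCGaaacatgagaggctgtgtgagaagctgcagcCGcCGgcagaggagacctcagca
Ptch1 holds 47 CG dinucleotides, and 98.6% of the 32851 RefSeq windows hold fewer. Hhip holds 30, more than 88.3% of windows. The median window holds 7, and 94.57% of windows hold at least 1. The GLI consensus GACCACCCA, searched on both strands, was in neither window nor in those of Gli2, Gli3 and Smo, and is in 0.253% of all windows. Its inner part CCACCCA, which overlaps it, was also in none of the 5 and is in 9.30% of all windows. The search covers these letters in these windows only. Windows were matched for 5 of the 7 genes; Shh (chr5:28456815-28467256, minus strand) and Gli1 (chr10:127329882-127341974, minus strand) are given by gene position only, as annotated by GENCODE M21 on GRCm38.

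Libraries had 13036 to 14418 genes at 1 TPM or more, and depth is unknown because TPM keeps none. Mitochondrial genes made up 11.3 to 15.2% of TPM in organoids and 6.54 to 8.29% in tips, without overlap, and the part of this in the differences between them was not tested. Markers of lung epithelium were present throughout, with 13 or 14 of 14 at 1 TPM or more in every library. The tips, labelled as epithelium, also held mesenchymal RNA: of 14 mesenchymal markers 10 to 13 were at 1 TPM or more, none was at 0, and their sum was 102 to 245 TPM. In the organoids that sum was 3.21 to 348 TPM, with 1 to 9 markers at 1 TPM or more. Smooth muscle markers summed to 5.01 to 11.7 TPM in organoids and 16.4 to 54.5 TPM in tips, and endothelial markers to 0.17 to 1.23 TPM in organoids and 7.16 to 29.1 TPM in tips. In bulk RNA, fewer cells of a type and less RNA per cell cannot be told apart.

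The first question was how the ligand and the response genes compare between organoids and the tips such cultures start from. Shh was lower in every organoid than in every tip, and so were Smo, Gli2, Gli3 and Hhip. Ptch1 and Gli1 were lower on average with overlap. By TPM, tips ran Shh, Smo, Ptch1, Gli3, Gli1, Hhip and Gli2 in falling order of their means, where Gli1, Hhip and Gli2 lie within their spread of each other. Organoids ran Smo, Ptch1, Shh, Gli3, Gli1, Hhip and Gli2, where Ptch1 and Shh do not differ beyond their spread. Nor do Gli1, Hhip and Gli2 there, and the Gli1 mean rests on the E10.5 organoid at day 11 (7.09 TPM). In the fit over 16779 genes, all 7 were called lower in organoids, against a background of 40.2% of genes called lower and 61.9% called in either direction. A call is an adjusted p under 0.05 in limma's moderated test on log2(TPM + 1), with Benjamini-Hochberg adjustment over all tested genes. Gli2 and Hhip passed the filter on low values (1 TPM in at least 2 libraries) through the tips alone, with 0 and 1 organoids at 1 TPM or more, and Gli1 had 2 such organoids, so the count of 7 is a description and supports nothing.

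Shh, the ligand, ranged from 5.23 to 52.8 TPM in organoids (median 19.7), against 159 TPM in the E10.5 tip, 155 TPM in the E11.5 tip, 143 TPM in the E12.5 tip and 134 TPM in the E13.5 tip. The lowest tip was thus above the highest organoid. The means were 25.7 ± 18.7 TPM in organoids (SD, n = 10) and 147.8 ± 11.6 TPM in tips (SD, n = 4). The log2 difference was -2.82 (SE 0.50), with an adjusted p of 1.41e-04 in limma.

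Ptch1, the receptor and response gene, ranged from 17.3 to 44.3 TPM in organoids (median 22.8), against 50.4, 55.9, 44.8 and 43.5 TPM in tips in order of stage. The groups met at 1 organoid, E10.5 at day 11, which at 44.3 TPM lay above the E13.5 tip. The log2 difference was -0.93 (SE 0.25, limma adjusted p 0.00385), the smallest in size of the 7 genes. With only organoids of up to 13 days the call was lost (-0.60, adjusted p 0.0518). Smo, which carries the signal inwards, was 27.6 to 51.2 TPM in organoids (median 40.3), against 106, 120, 105 and 116 TPM in tips. The groups did not overlap, and the log2 difference was -1.48 (SE 0.15, limma adjusted p 3.73e-07).

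Among the transcription factors, Gli3 kept a low level in culture and Gli1 and Gli2 were mostly listed at 0. Gli3 was 0.38 to 3.98 TPM in organoids (median 1.40), against 22.8, 19.9, 19.7 and 23.9 TPM in tips. Its log2 difference of -3.15 (SE 0.36, limma adjusted p 1.9e-06) was the largest in size of the 7. Gli1 was 7.09 TPM in the E10.5 organoid at day 11, 1.19 TPM in the E11.5 organoid at day 11 and at most 0.05 TPM in the other 8 organoids, against 10.2, 17.8, 4.04 and 3.48 TPM in tips. Thus 1 organoid lay among the tips and 6 of 10 were listed at 0. The fitted log2 difference was -2.63 (SE 0.53, limma adjusted p 4.31e-04). Gli2 was 0.98 TPM in the same E10.5 organoid, 0.16 TPM in the E11.5 one and at most 0.03 TPM in the rest, against 3.34, 6.85, 2.04 and 1.61 TPM in tips (log2 difference -1.89, SE 0.26). Hhip, which limits the reach of the ligand, was 1.79 TPM in the E11.5 organoid at day 11, 0.48 TPM in the E10.5 one and at most 0.12 TPM in the rest, against 7.81, 13.2, 4.49 and 3.56 TPM in tips (log2 difference -2.60, SE 0.30). No p is given for Gli2 and Hhip, since only the tips brought them past the filter. The exact two-sided permutation test over the 1001 splits of 10 and 4 libraries gave 0.000999, the smallest p it can give, for Shh, Gli3 and Smo, 0.00599 for Ptch1 and 0.003 for Gli1.

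**Figure D1:**
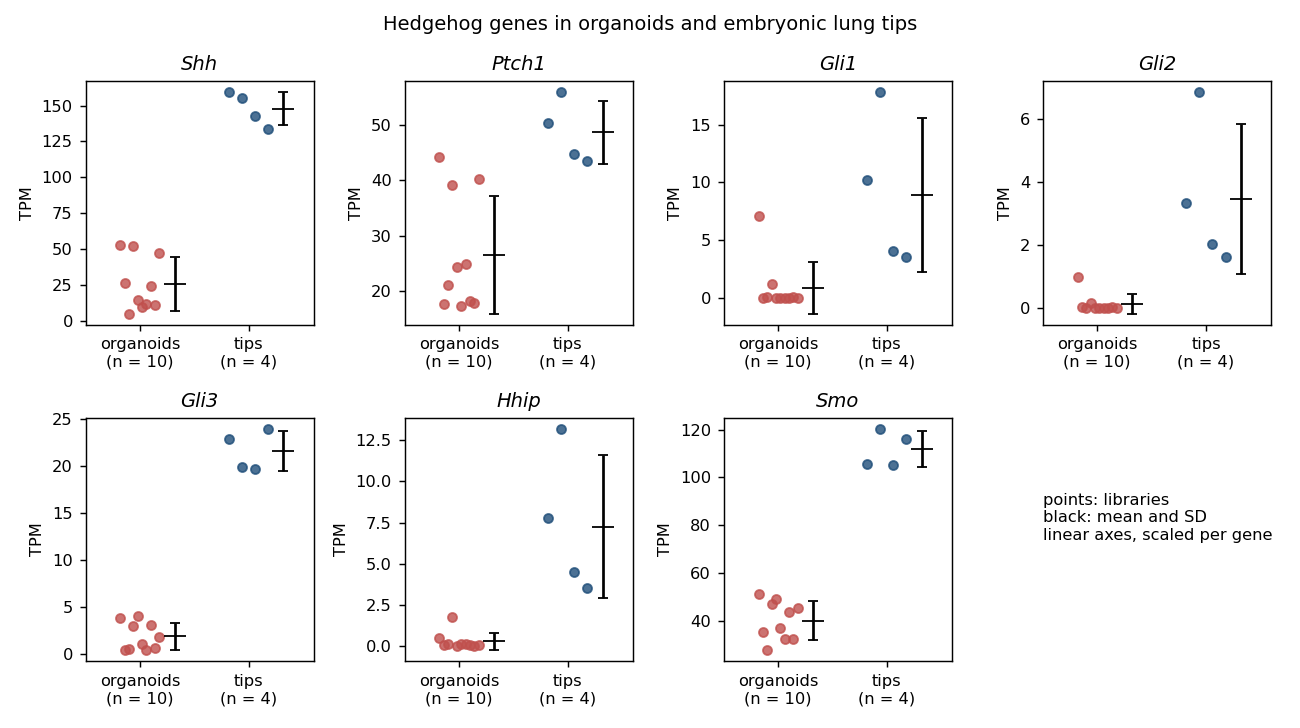
TPM of the 7 Hedgehog genes in organoids (red, n = 10) and tips (blue, n = 4), on linear axes scaled for each gene, with 1 point a library and mean and SD in black. Shh in organoids lies at 5.23 to 52.8 TPM, below all tips, while Ptch1 of 1 organoid reaches the tips.

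The ligand and its receptor moved by different amounts. The ratio of Shh to Ptch1 TPM within a library was 0.246 to 1.48 in organoids (median 0.912) and 2.77 to 3.19 in tips (median 3.12), without overlap. In the pieces of organoid, a separately made set, it reached 3.59, above every tip. This ratio does not depend on how libraries are scaled. Scaling matters for the log2 differences, because Sftpc, the surfactant protein C gene, alone took 49076 to 124839 TPM in organoids and 37.0 to 210 TPM in tips. The median difference over all genes was -0.20 as deposited and 0.06 after rescaling by median ratios, and 35% of calls were higher in organoids as deposited and 49.1% after rescaling. After rescaling Shh (-2.52), Ptch1 (-0.63) and Smo (-1.17) were still called lower.

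Other genes of the pathway were counted from a list of 36, of which 34 were tested; 25 were called lower in organoids, 1 higher and 8 not, with a median log2 difference of -1.44 against -0.20 for all genes. After rescaling 23 were lower and 2 higher, Spop being the added one. Among genes for ligands and their release, 3 of 5 tested were lower. Ihh, the Indian hedgehog ligand, averaged 0.263 ± 0.177 TPM in organoids and 4.22 ± 4.40 TPM in tips (SD, n = 10 and 4), and Dhh, the desert hedgehog ligand, was at most 0.04 TPM in organoids and 0.07 TPM in tips and was not tested. Among co-receptor genes, Boc averaged 1.30 TPM in organoids and 4.77 TPM in tips (log2 difference -1.40), and Gas1 0.178 TPM in organoids and 4.49 TPM in tips (-2.15); both were called lower, and their proteins bind the ligand. Cdon, another co-receptor gene, was not called, with 10.1 ± 2.12 TPM in organoids and 11.8 ± 1.23 TPM in tips. Among transducers 10 of 14 were lower, including Sufu, which restrains Gli factors, at 14.9 ± 1.65 TPM in organoids and 32.0 ± 4.01 TPM in tips (log2 difference -1.05). Of 10 genes known as targets in lung mesenchyme or other tissues, 9 were lower and Bmp4 higher. The largest were Foxf1, a factor of the lung mesenchyme, at -3.99, Hsd11b2 at -3.66, the cyclin gene Ccnd1 at -3.58, Osr1 at -3.52 and the cyclin gene Ccnd2 at -3.33. Foxf1 was 0 to 7.66 TPM in organoids (median 0.045) and 9.56 to 60.6 TPM in tips.

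Of 13 tested mesenchymal markers 9 were called lower in organoids, beside 40.2% of all tested genes. The part of mesenchymal RNA in these differences was not tested. Twist2, Wnt2 and Meox2 were below 1 TPM in every organoid, so only the tips brought them past the filter. Some values went the other way. Dcn was 188 TPM in the E10.5 organoid at day 32 and at most 3.79 TPM in tips. The summed markers of the E10.5 organoid at day 11 (348 TPM) were above those of every tip. Without the E10.5 and E11.5 organoids of day 11, which hold 9 mesenchymal markers each at 1 TPM or more, Shh, Ptch1, Smo and Gli3 were again called lower. That fit keeps the tips with their mesenchymal RNA, so it cannot show what part this RNA has. Over the 36 cultured libraries of all tables, Gli1 reached 1 TPM in 4 (organoids E10.5 and E11.5 at day 11, ALL replicate 1 and 2C+F10), Hhip in 3 of those 4 and Gli2 in 0. Shh, Ptch1 and Smo were above 1 TPM in all 40 libraries and Gli3 in 20 of the 36. The 4 libraries with Gli1 held mesenchymal markers at 348, 75.5, 109 and 103 TPM summed, with 9, 9, 11 and 8 of the 14 at 1 TPM or more. Other libraries with high sums had Gli1 below 1 TPM, and their sums differed in make-up. The part of mesenchymal RNA in the Gli1 values was not tested. LO_day11_DCI, with 73.7 TPM summed and 8 markers at 1 TPM or more, had Gli1 at 0.70 TPM. LO_day11, with 6 markers and 72.5 TPM, of which Dcn gave 34.4 TPM, had Gli1 listed at 0. ALL-MTG replicate 1 had a sum of 181 TPM, of which Dcn gave 168 TPM, and Gli1 listed at 0. Likewise the E10.5 organoid at day 32 had a sum of 191 TPM, of which Dcn gave 188 TPM, and Gli1 at 0.04 TPM. Tbx4, a factor of the lung mesenchyme, was 0.30 TPM in the E10.5 organoid at day 11 with the most Gli1, and 10.1, 7.59 and 1.59 TPM in the E11.5 organoid, ALL replicate 1 and 2C+F10. Ptch1 was high in some libraries with a low sum: it was 40.3 TPM in the E9.5 organoid and 45.6 TPM in 2C, whose mesenchymal sums were 3.98 and 3.64 TPM.

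**Figure D2:**
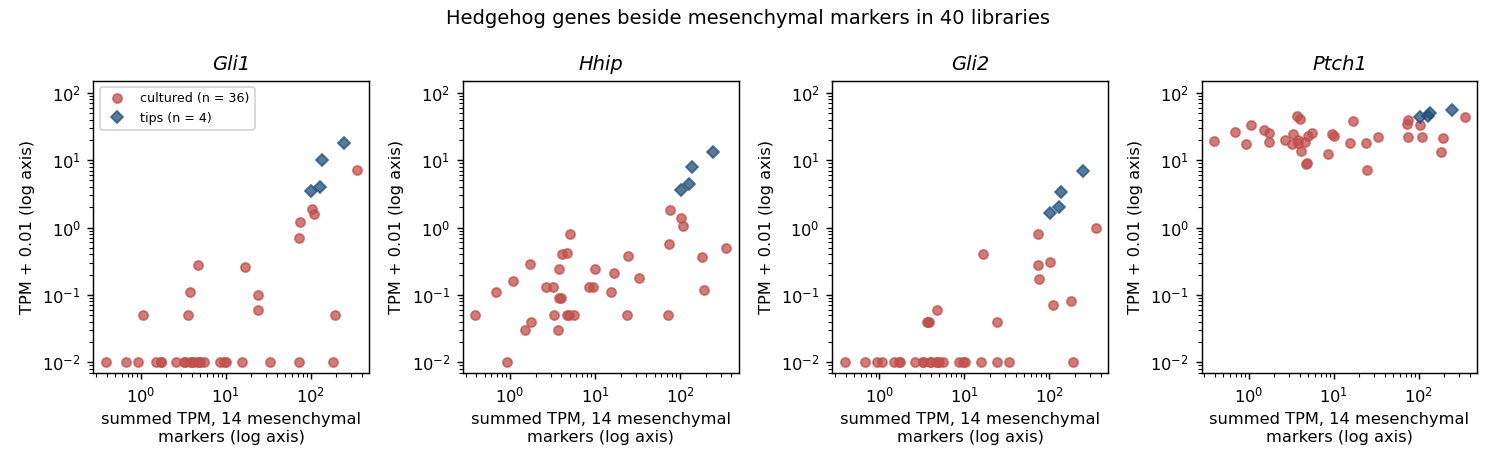
TPM plus 0.01 of Gli1, Hhip, Gli2 and Ptch1 (log axes) against the summed TPM of 14 mesenchymal markers (log axis) in 36 cultured libraries (red circles) and 4 tips (blue diamonds), 1 point a library. Gli1 is at the floor of the axis in most cultured libraries with sums below 30 TPM, while Ptch1 is above 7 TPM at every sum; the points share no replicate design and no test was made.

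The second question was how the genes changed with days in culture. Shh, Gli3 and Smo fell with culture day, and Ptch1 did not pass the test. In organoids from E10.5 tips, Shh was 52.8 TPM at day 11, 26.3 TPM at day 18 and 5.23 TPM at day 32. From E13.5 tips it was 14.9, 9.57 and 11.8 TPM at days 11, 19 and 30, and from E14 tips 24.5 and 11.54 TPM at days 11 and 24. The decline was thus steepest in the E10.5 cultures, and the E13.5 cultures were already low at day 11. The fitted change over the 21 days between the earliest and latest cultures was -2.10 on the log2 scale (SE 0.40, limma adjusted p 0.00857), with the starting stage in the model. This rests on the oldest E10.5 organoid: without it the change was -1.25 (adjusted p 0.151).

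Gli3 fell in all 3 starting stages with more than 1 day, to 0.57 TPM at day 32 against 3.80 TPM at day 11 from E10.5, to 0.38 TPM at day 30 against 3.98 TPM at day 11 from E13.5, and to 0.64 TPM at day 24 against 3.03 TPM at day 11 from E14. The fitted change was -1.68 (SE 0.33, limma adjusted p 0.00965). Smo fell likewise, to 27.6 TPM at day 32 against 51.2 TPM at day 11 from E10.5, to 32.6 TPM at day 30 against 49.0 TPM at day 11 from E13.5, and to 32.5 TPM at day 24 against 43.7 TPM at day 11 from E14, with a fitted change of -0.71 (SE 0.11, limma adjusted p 0.00322). In every stage the last library was the lower one for both genes. Ptch1 was 44.3 TPM at day 11, 17.8 TPM at day 18 and 21.2 TPM at day 32 from E10.5, but 24.4, 17.3 and 24.9 TPM at days 11, 19 and 30 from E13.5 and 18.2 and 18.0 TPM at days 11 and 24 from E14. Its fitted change was -0.51 (SE 0.29, limma adjusted p 0.30). Gli1, Gli2 and Hhip were not called, with fitted changes of -0.90, -0.26 and -0.39 that come from the day 11 organoids named above.

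**Figure D3:**
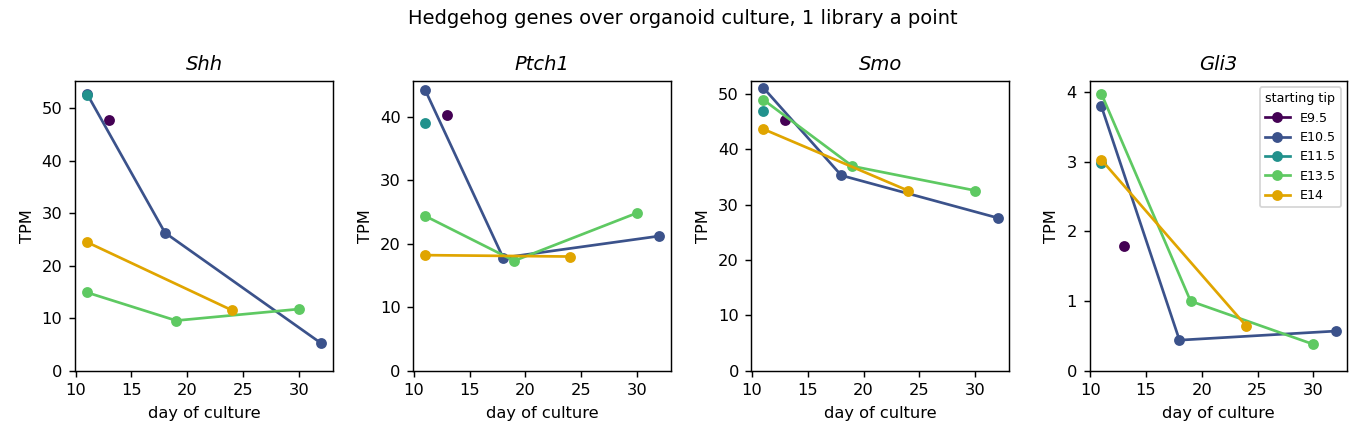
TPM of Shh, Ptch1, Smo and Gli3 against day of culture in the 10 organoids, 1 library a point, with lines joining libraries of the same starting stage. Smo and Gli3 are lower at the last day than at day 11 in all 3 joined stages, and Ptch1 from E13.5 tips is 24.4 TPM at day 11, 17.3 TPM at day 19 and 24.9 TPM at day 30.

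These 3 of 7 called genes stand against a background of 9.64% of 16779 genes called with culture day, and 6.67% of the tested genes called lower. Without the E10.5 and E11.5 organoids of day 11, only Smo remained called (-0.66, adjusted p 0.0271); Shh was at -1.78 (adjusted p 0.0527) and Gli3 at -1.47 (adjusted p 0.0571). The median change of all genes was -0.17 as deposited and close to 0 after rescaling, which moved the share of higher calls to 59.8% from 30.8% but kept the calls of Shh (-1.92), Gli3 (-1.60) and Smo (-0.51). Of the 34 other pathway genes, 3 were called lower: Ccnd2 at -4.28, Evc2 at -0.89 and Kif7 at -0.86, the last 2 encoding ciliary proteins of the pathway. After rescaling, Ccnd2 alone was lower and Disp1, which encodes a ligand release protein, was higher. By starting stage, 0 of the 7 genes was called in limma, and 0.0536% of all genes were; over the 4.5 days of starting stage Shh changed by -1.05 (adjusted p 0.57, unadjusted p 0.021) and Ptch1 by -0.72 (adjusted p 0.608, unadjusted p 0.029), the 2 genes with an unadjusted p under 0.05. With embryonic day in the 4 tips, again 0 of the 7 was called, by adjusted or unadjusted p, beside 0.733% of all genes. Ihh, called lower with a fitted change of -3.57, was 8.30, 7.73, 0.84 and 0 TPM in the tips in order of stage. Only the E10.5 and E11.5 tips brought Ihh past the filter, so no p is given for it. With a pseudocount of 0.1 TPM it was not called.

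Patterns most like each gene's were sought over the 10 organoids among 9683 genes at 5 TPM or more in at least 5 of them, by Pearson's r of log2(TPM + 1), as a description. For Shh they were Akap1 (r = 0.966), Dcun1d2 (0.964) and Prdm15 (0.958). For Ptch1 they were Gpx8 (0.962), Miga1 (0.949) and Pde7a (0.946), and for Gli3 Ccnjl (0.977), Rbm15b (0.967) and Rcn2 (0.967). Ttl (0.973), Snn (0.972) and Patz1 (0.972) came first for Smo. No gene of the pathway list was among these 12. The libraries share a culture-day trend, and Gli1, Gli2 and Hhip were too low in most organoids to be compared.

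The third question was what leaving a component out did to the genes, with n = 2 in each group. Shh was highest without FGF10, and 4 of the 7 genes (Shh, Ptch1, Gli3 and Smo) passed the filter. Only the ALL-MTG libraries brought Gli3 past it, so no p is given for Gli3 in these contrasts. Shh was 41.2 and 45.8 TPM in ALL-FGF10, 15.1 and 14.9 TPM in ALL-MTG and 16.1 and 16.4 TPM in ALL-VC, against 26.2 and 18.5 TPM in ALL. Both ALL-FGF10 libraries were above all 6 others, and the ALL-MTG and ALL-VC libraries were below both ALL libraries. The log2 difference of ALL-FGF10 from ALL was 0.95 (SE 0.21), which was not called (limma adjusted p 0.0755); it was called after rescaling (0.84, adjusted p 0.0442) and without ALL replicate 1 (1.19, adjusted p 0.0254). Against ALL-MTG it was 1.47 (SE 0.21, limma adjusted p 0.013) and against ALL-VC 1.36 (SE 0.21, limma adjusted p 0.0151), both called. These were the only calls among the 4 genes in the 6 contrasts. The first was lost without ALL-MTG replicate 1, ALL-FGF10 replicate 1 or ALL-FGF10 replicate 2 (adjusted p 0.0561, 0.149 and 0.201), the second without any 1 of its own 4 libraries (adjusted p 0.0954 to 0.228), while the differences stayed between 1.29 and 1.55.

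Ptch1 was 27.8 and 26.0 TPM in ALL-FGF10, 13.3 and 12.3 TPM in ALL-MTG and 17.7 and 25.8 TPM in ALL-VC, against 22.3 and 8.91 TPM in ALL. The 2 ALL libraries lay further apart than any other pair. Its log2 differences from ALL were 0.87, -0.14 and 0.56 (SE 0.39 each), none called, and that of ALL-FGF10 from ALL-MTG was 1.02 (limma adjusted p 0.223; called when only those 2 groups were fitted, adjusted p 0.0452). Without ALL replicate 1, Ptch1 was called higher in ALL-FGF10 (1.49, adjusted p 0.0335) and in ALL-VC (1.17, adjusted p 0.0454). ALL replicate 1 held mesenchymal markers at 109 TPM and Foxf1 at 4.91 TPM, where ALL replicate 2 held 4.69 TPM and 0; the part of these in the results was not tested. Gli1 and Hhip followed the same library, with 1.58 and 1.06 TPM in ALL replicate 1 and 0.27 and 0.04 TPM in ALL replicate 2, while Gli1 was listed at 0 in all 6 omission libraries.

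Smo was 26.3 and 25.3 TPM in ALL-FGF10, 40.0 and 30.9 TPM in ALL-MTG and 35.1 and 39.4 TPM in ALL-VC, against 34.2 and 25.9 TPM in ALL. By group mean it was thus lowest where Shh was highest, though ALL replicate 2 lay between the 2 ALL-FGF10 libraries. Its difference was not called (ALL-FGF10 from ALL-VC -0.51, SE 0.21, limma adjusted p 0.216). With only those 2 groups fitted it was called (-0.51, limma adjusted p 0.0453), and so it was without ALL replicate 1 and ALL-MTG replicate 1 (limma adjusted p 0.049). Gli3 was 0.62 and 0.73 TPM in ALL-FGF10, 2.72 and 1.33 TPM in ALL-MTG and 0.35 and 0.24 TPM in ALL-VC, against 0.77 and 0.26 TPM in ALL. Gli2 was at most 0.07 TPM in any of the 8 libraries, and Hhip at most 0.35 TPM outside ALL replicate 1.

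**Figure D4:**
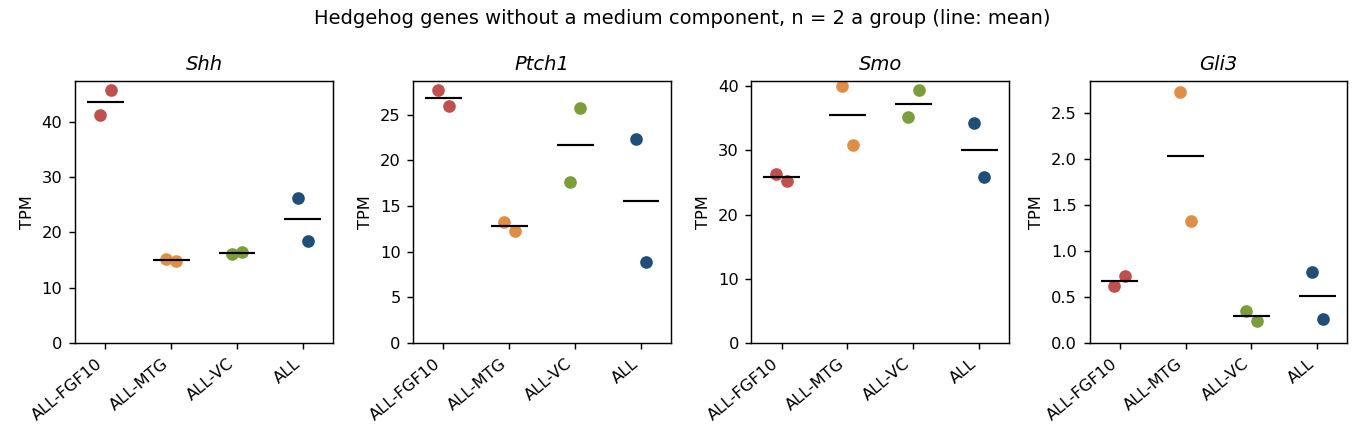
TPM of Shh, Ptch1, Smo and Gli3 in ALL-FGF10, ALL-MTG, ALL-VC and ALL (left to right), with points for the 2 libraries of a group and a line at their mean. Shh of both ALL-FGF10 libraries, at 41.2 and 45.8 TPM, stands above the other 6, and the 2 ALL libraries differ most in Ptch1.

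The background for these counts was 1.83% of 14802 genes called in ALL-FGF10 against ALL, 0.513% in ALL-MTG against ALL and 0.804% in ALL-VC against ALL, where 0 of the 4 genes was called. With Gli3 left aside for the filter, these 3 contrasts held Shh, then Shh, then none at an unadjusted p under 0.05 in limma. The share was 3.52% (1.78% higher) in ALL-FGF10 against ALL-MTG and 3.82% (1.94% higher) in ALL-FGF10 against ALL-VC, with 1 of 4 called each. It was 0.547% in ALL-MTG against ALL-VC, with 0 called. The 3 contrasts with ALL share its libraries, and the 2 with called Shh share the ALL-FGF10 libraries. Of 25 tested genes of the pathway list, 0 was called against ALL. Lrp2, which encodes the endocytic receptor megalin that can bind the ligand, was the 1 call in each of the other contrasts with ALL-FGF10. It was 24.7 and 25.0 TPM in ALL-FGF10, against 5.21 and 3.31 TPM in ALL-MTG (log2 difference 2.32, limma adjusted p 0.00519) and 5.30 and 5.54 TPM in ALL-VC (2.01, limma adjusted p 0.00841).

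The LO and 2C sets have 1 library a condition, so their differences have no replicate check and no p-value. Past the fold here means a log2 difference of at least 1 in size with at least 5 TPM in the higher library. Smo was the gene of the 7 that differed most with DCI. It was 16.5 TPM in LO_day11_DCI, against 59.1 TPM in LO_day11, a log2 difference of -1.78. The value of 16.5 TPM was the lowest Smo of the 40 libraries, closely followed by 17.0 TPM in the intact organoid. Shh was 44.2 TPM in LO_day11_DCI and 37.7 TPM in LO_day11, and Ptch1 21.9 TPM in LO_day11_DCI and 34.7 TPM in LO_day11, neither past the fold. Shh over Ptch1 was 2.02 in LO_day11_DCI and 1.09 in LO_day11. Gli1 was 0.70 TPM in LO_day11_DCI and listed at 0 in LO_day11. Gli2 was 0.79 TPM in LO_day11_DCI and 0.27 TPM in LO_day11, Hhip 0.55 TPM in LO_day11_DCI and 0.04 TPM in LO_day11, and Gli3 1.57 TPM in LO_day11_DCI and 4.27 TPM in LO_day11. These 4 were under the 5 TPM minimum. So 1 of the 7 genes was past the fold, beside 24.2% of 11369 genes (13.0% lower). Of the pathway list 10 genes were past it, 9 lower and Lrp2 higher (9.67 TPM in LO_day11_DCI and 0.15 TPM in LO_day11). Evc and Evc2, whose proteins bind Smoothened at the cilium, were among the lower ones (0.55 and 2.82 TPM in LO_day11_DCI, against 6.21 and 13.6 TPM in LO_day11). The mesothelial marker Msln was 277 TPM in LO_day11_DCI and 6.19 TPM in LO_day11, and Foxf1 4.71 TPM in LO_day11_DCI and 0.17 TPM in LO_day11. Mesenchymal markers summed to 73.7 TPM in LO_day11_DCI and 72.5 TPM in LO_day11, but the sums differed in make-up. Dcn was 0.66 TPM in LO_day11_DCI and 34.4 TPM in LO_day11. Pdgfra was 14.7 TPM in LO_day11_DCI and 0.03 TPM in LO_day11, and Tbx4 5.61 TPM in LO_day11_DCI and 0.2 TPM in LO_day11. The part of all these markers in the values above was not tested.

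From day 8 through day 11 to day 18 of LO, Shh was 44.6, 37.7 and 32.3 TPM, Ptch1 38.7, 34.7 and 19.7 TPM, Smo 68.5, 59.1 and 37.7 TPM and Gli3 8.54, 4.27 and 0.71 TPM. All 4 were lower at each later day. None of the 7 genes was past the fold between neighbouring days, where 5.25% (day 11 against day 8) and 14.1% (day 18 against day 11) of genes were. Gli3 had a log2 difference of -1.62 at day 18 against day 11, but could not count because 4.27 TPM is under the 5 TPM minimum. Gli1 and Hhip stayed at or below 0.25 TPM and Gli2 at or below 0.39 TPM on these days.

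**Figure D5:**
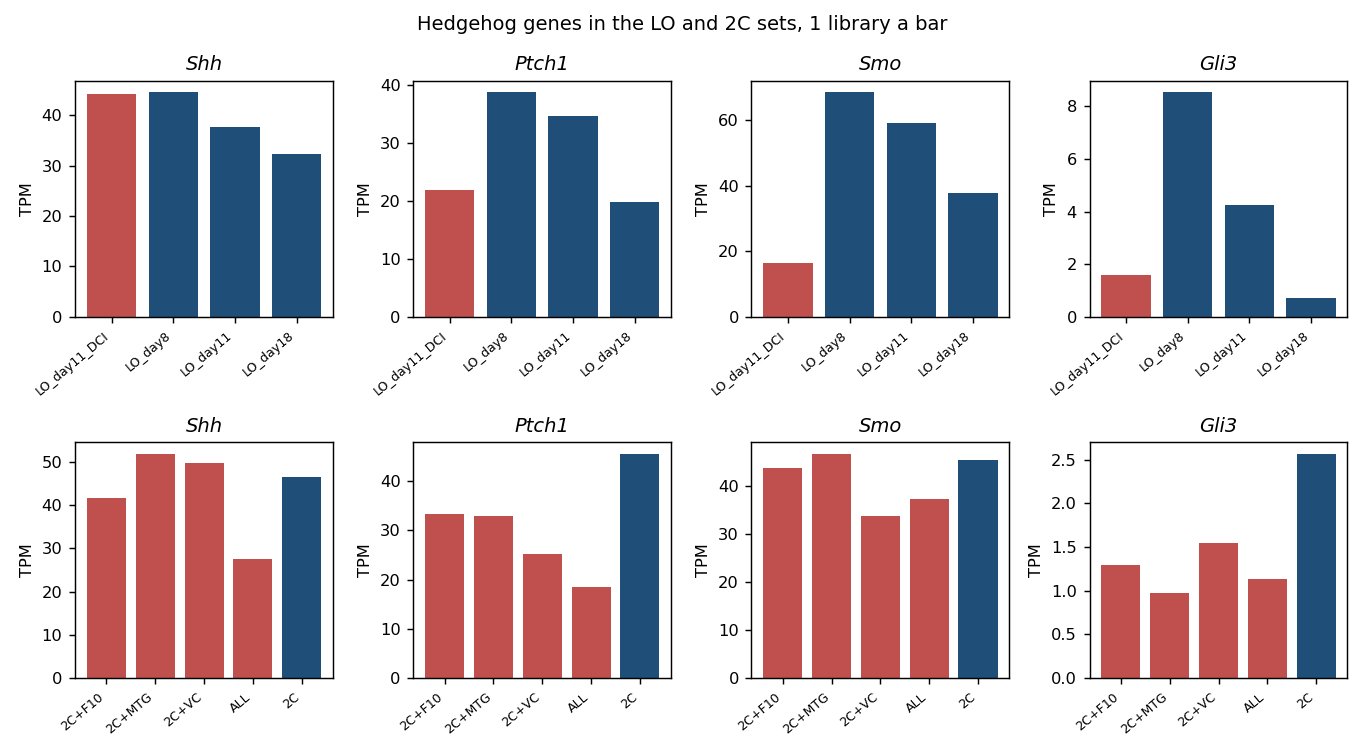
TPM of Shh, Ptch1, Smo and Gli3 in the LO set (top; LO_day11_DCI in red, then days 8, 11 and 18 in blue) and in the 2C set (bottom; 2C+F10, 2C+MTG, 2C+VC and the unnumbered ALL in red, then 2C in blue), 1 library a bar on axes from 0. Smo is lowest in LO_day11_DCI at 16.5 TPM, and Ptch1 is highest in 2C at 45.6 TPM.

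In the 3 single additions to 2C, Shh lay near its 2C value, and Ptch1 was lower than in 2C in each. Shh was 41.8 TPM in 2C+F10, 51.9 TPM in 2C+MTG, 49.7 TPM in 2C+VC and 27.5 TPM in the unnumbered ALL, against 46.6 TPM in 2C. Ptch1 was 33.3 TPM in 2C+F10, 32.9 TPM in 2C+MTG, 25.2 TPM in 2C+VC and 18.5 TPM in the unnumbered ALL, against 45.6 TPM in 2C. Smo was 33.8 to 46.8 TPM in these 4 libraries, against 45.6 TPM in 2C, and Gli3 0.98 to 1.55 TPM, against 2.57 TPM in 2C. None of the 7 genes was past the fold in 2C+F10, 2C+MTG or 2C+VC against 2C, where 5.90%, 7.52% and 9.61% of genes were. In the unnumbered ALL against 2C, Ptch1 was past it (log2 difference -1.26), beside 12.3% of 10916 genes (7.44% lower); all genes had a median of -0.24 there, and after rescaling Ptch1 was no longer past the fold. 2C+F10 was the 1 library of the set with Gli1 and Hhip above 1 TPM (1.85 and 1.38 TPM in 2C+F10, against 0.04 and 0.02 TPM in 2C). It was also the 1 with mesenchymal markers above 10 TPM summed, at 103 TPM, and Foxf1 at 2.19 TPM, against 3.64 TPM and 0 in 2C. Whether that RNA carries the Gli1 and Hhip values was not tested.

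Within 8 pieces of organoid, Shh was 16.3 to 32.6 TPM (median 28.0) beside 20.9 TPM in the intact one. Ptch1 was 7.25 to 23.0 TPM (median 19.3) in pieces and 19.4 TPM in the intact organoid, and Smo 25.6 to 39.2 TPM in pieces and 17.0 TPM in the intact organoid. Ptch1 thus varied by a wider factor between pieces than the ligand or Smo. Shh over Ptch1 was 0.936 to 3.59 in pieces (median 1.35) and 1.08 in the intact organoid. The highest piece was above every tip (2.77 to 3.19). Gli3 was 0.78 to 5.09 TPM in pieces and 1.55 TPM in the intact organoid. Gli2 was listed at 0 in all 9, Gli1 at 0 in all but 1 piece with 0.09 TPM, and Hhip was 0.04 to 0.79 TPM in pieces and 0.04 TPM in the intact organoid. Across the separately made tables, the highest cultured Shh was 52.8 TPM, still under the lowest tip, and the same held for Gli2, Gli3, Hhip and Smo, whose highest cultured values were 0.98, 8.54, 1.79 and 68.5 TPM.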

How the data were processed

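Tips, organoids and pieces of mouse branching lung organoid were profiled by RNA sequencing of total RNA with an mRNA library kit, per the labels. The authors deposited TPM values per gene symbol in 5 tables; per the submitters' processing notes these were made with RSEM and Bowtie2 on mm10, and versions and gene annotation are not given in the sources used here. TPM keeps no depth, so counting precision is unknown. The 40 columns that matched a sample title were used, and 1 column that matched none was left out. The replicates' origin is not stated.

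From these values, log2(TPM + 1) was tested with limma 3.58.1 in R 4.3.3 (lmFit, eBayes with trend, two-sided, Benjamini-Hochberg over all genes at 1 TPM or more in at least 2 libraries; called under 0.05). Organoids and tips were fitted as 2 groups, and a second fit gave slopes on culture day, starting stage and embryonic day, where the spread around the lines stands in for replicates. The 8 numbered libraries shared 1 fit. Single libraries were only described. Alternatives were a pseudocount of 0.1 TPM, no filter, median-ratio rescaling, a replicate block, other sample subsets and leaving out each library. The script was checked on simulated data. Tables and figures used Python 3.11.15, pandas 2.3.3, numpy 2.4.6 and matplotlib 3.10.9.

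The 7 genes, the pathway list and the marker lists (50 genes) were chosen with earlier results of these data known. All 7 genes are reported in each comparison. Pathway genes are named where called, at most 6 a comparison and largest first, with Ihh, Dhh, Boc, Cdon, Gas1, Sufu and Foxf1 always named and 1 gene of the list not reported here; Bmp4, Spop, Disp1 and single markers were named after their values were seen.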

Additional observations from a re-analysis of the deposited data

Results flagged for a closer look

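Of 21 combinations of gene and group with 4 to 10 libraries, 4 had a library far from the others by Dixon's test. Its rate of about 1 in 20 by chance holds for normally distributed values. All 4 flags were in genes at or near 0 in most libraries of the group, so that rate does not apply to them. In the organoids these were Gli1, at 7.09 TPM in the E10.5 organoid of day 11, Gli2, at 0.98 TPM in the same organoid, and Hhip, at 1.79 TPM in the E11.5 organoid of day 11. Both organoids hold 9 of 14 mesenchymal markers at 1 TPM or more, and the part of these in the values was not tested. In the pieces it was Gli1, at 0.09 TPM in 1 piece where the other 7 are listed at 0, a value too low to compare.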

How the results depend on the processing

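Shh, Ptch1, Smo and Gli3 were called lower in organoids than in tips under a pseudocount of 0.1 TPM, no filter, rescaling, without each library and without the E10.5 and E11.5 organoids of day 11, and all of these but Ptch1 with organoids of up to 13 days. Counts of all called genes moved by over 1.5 times in several contrasts, and the cause was not tested. With a pseudocount of 0.1 TPM, 177 genes were called in ALL-FGF10 against ALL (271 as reported) and 25 with embryonic day in tips (123). With no filter 335 were called with embryonic day, 3 with starting stage (9), 7 in ALL-MTG against ALL (76), 27 in ALL-VC against ALL (119) and 22 in ALL-MTG against ALL-VC (81). Rescaling gave 190 genes in ALL-VC against ALL, 1 of the followed genes in ALL-FGF10 against ALL and 0 in the unnumbered ALL against 2C; it reversed Shh (0.0079) and Smo (0.0418) in ALL-MTG against ALL-VC, neither called. It also moved the share of higher genes to 61.3% from 50.8% in ALL-FGF10 against ALL-VC, to 55.6% from 45.3% in LO_day11 against LO_day8, to 55.9% from 44.9% in LO_day18 against LO_day11 and to 61.6% from 39.7% in the unnumbered ALL against 2C. With only the 2 groups compared, 166, 11 and 51 genes were called in ALL-FGF10, ALL-MTG and ALL-VC against ALL, 18 in ALL-MTG against ALL-VC and 2158 in ALL-FGF10 against ALL-VC (565), with 2 of the followed genes called in ALL-FGF10 against ALL-MTG and 2 in ALL-FGF10 against ALL-VC.

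With replicate number as a block, 143, 48 and 68 genes were called in ALL-FGF10, ALL-MTG and ALL-VC against ALL and 45 in ALL-MTG against ALL-VC, and no call of the 7 genes changed. Deviations of libraries with the same number correlated at -0.0702 to 0.1135 over the 6 pairs of groups, so the numbers were not taken to pair libraries.

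A pair of alternatives was chosen after seeing the data. Without the E10.5 and E11.5 organoids of day 11, 606 genes and 1 followed gene were called with culture day (1617 and 3), 3 genes with starting stage and 68 with embryonic day; Gli1 (0.0441), Gli2 (0.0046) and Hhip (0.0434) with culture day and Gli1 (0.0041) and Smo (0.0344) with starting stage reversed. Without ALL replicate 1 and ALL-MTG replicate 1, 3000, 41 and 3172 genes were called in ALL-FGF10, ALL-MTG and ALL-VC against ALL, 1224 in ALL-FGF10 against ALL-MTG and 1983 in ALL-FGF10 against ALL-VC, with 2, 1 and 2 followed genes in ALL-FGF10 against ALL, ALL-VC against ALL and ALL-FGF10 against ALL-VC; Ptch1 reversed in ALL-MTG against ALL (0.4212).

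Leaving out each library in turn gave 430 to 1825 genes with culture day, 2 to 10 with starting stage and 14 to 120 with embryonic day. It gave 9 to 1149 genes in ALL-FGF10 against ALL (0 to 2 followed), 18 to 191 in ALL-MTG against ALL, 8 to 1309 in ALL-VC against ALL (0 to 1 followed), 19 to 838 in ALL-FGF10 against ALL-MTG (0 to 2), 15 to 966 in ALL-FGF10 against ALL-VC (0 to 1) and 6 to 204 in ALL-MTG against ALL-VC. The changes that crossed 0, none of them called on the far side unless named in the report, were Gli3 (-0.0972 to 0.4858) and Smo (-0.0652 to 0.028) with starting stage, Gli3 (-0.3054 to 0.3798) and Smo (-0.077 to 0.1145) with embryonic day, Gli3 in ALL-FGF10 against ALL (-0.0804 to 0.41), Ptch1 in ALL-MTG against ALL (-0.7584 to 0.4756), Ptch1 (-0.0607 to 1.1733) and Gli3 (-0.4521 to 0.0382) in ALL-VC against ALL, and Smo in ALL-MTG against ALL-VC (-0.2623 to 0.1034). Where 1 library was left in a group, it was assumed to vary like the other groups. TPM holds no depth, so values near 0 have no counting error here.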
